A study of Homo sapiens with 5 samples.

Results

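The proteasome subunit genes are the protein-coding genes whose symbol is PSMA, PSMB, PSMC, PSMD, PSME, PSMF or PSMG with a number, apart from PSMB8 and PSMB9, which were left out of the set. The annotation held 46 such genes among 20162 protein-coding genes. Binding of PHF8 at their promoters was read from chromatin immunoprecipitation followed by sequencing (ChIP-seq) in SKMEL-147 cells, a melanoma line that is long established in culture. The study asked which genes PHF8 binds in these cells. It made 3 ChIP libraries with an antibody to PHF8 (replicates A, B1 and B2) and 2 input libraries without antibody (A and B), all from the same line, for which the labels name no guide RNA or treatment. There was 1 group, so conditions could not be compared, and the inputs enter only through the enrichment values of the peaks. The labels do not say whether the replicates came from separate cultures, so the spread between them may be technical, and the peak lists give no measure of which cells were used.

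PHF8 belongs to the Jumonji C family of enzymes that remove methyl groups from histones. Its PHD finger binds histone H3 trimethylated at lysine 4, the mark of active promoters, and its catalytic domain removes methyl groups from H3 lysine 9 and from H4 lysine 20. The proteasome is the main machine for the degradation of ubiquitin-tagged proteins. A core particle of stacked alpha and beta rings holds the proteolytic sites, and a regulatory particle of ATPases and other subunits recognises, unfolds and feeds in the substrate. Most of these genes are expressed in every cell, and their transcription is known to be raised together by NFE2L1 when the proteasome is inhibited.

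Promoter sequence of 7 of these genes is shown so that the letters can be read beside the peak values, namely the genes with the highest ranked peaks (PSMD8 and PSMD14), a pair of catalytic subunits (PSMB5 and PSMB7), the gene with the lowest ranked peak (PSMD10) and the only genes without a peak (PSMA8 and PSMB11). Each stretch runs 5′ to 3′ on the strand of the gene, in the GRCh37 build, from 200 bases before the start of the Ensembl canonical transcript to 30 bases from that start on. Capitals mark matches to 7 motifs, whose letters are given with the motif counts. At the bound genes the summit of the strongest peak lay outside the printed stretch in every replicate, so the letters are not those under the summit.
PSMD8, chr19:38865011-38865240, plus strand: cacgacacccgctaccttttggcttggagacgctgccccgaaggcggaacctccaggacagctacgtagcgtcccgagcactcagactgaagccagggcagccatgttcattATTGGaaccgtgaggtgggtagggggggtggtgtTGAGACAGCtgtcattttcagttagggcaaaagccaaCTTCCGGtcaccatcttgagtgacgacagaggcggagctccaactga
PSMD14, chr2:162164736-162164965, plus strand: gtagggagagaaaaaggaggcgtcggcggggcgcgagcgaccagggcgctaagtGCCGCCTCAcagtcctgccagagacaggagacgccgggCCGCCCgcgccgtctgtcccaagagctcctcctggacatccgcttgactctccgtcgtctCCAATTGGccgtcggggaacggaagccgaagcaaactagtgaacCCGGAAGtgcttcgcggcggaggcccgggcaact
PSMB5, chr14:23504080-23504309, minus strand: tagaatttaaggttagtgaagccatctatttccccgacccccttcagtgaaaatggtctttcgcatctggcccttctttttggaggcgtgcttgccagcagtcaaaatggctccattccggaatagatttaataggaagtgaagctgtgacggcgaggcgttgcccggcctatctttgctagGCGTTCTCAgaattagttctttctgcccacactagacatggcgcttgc
PSMB7, chr9:127177692-127177921, minus strand: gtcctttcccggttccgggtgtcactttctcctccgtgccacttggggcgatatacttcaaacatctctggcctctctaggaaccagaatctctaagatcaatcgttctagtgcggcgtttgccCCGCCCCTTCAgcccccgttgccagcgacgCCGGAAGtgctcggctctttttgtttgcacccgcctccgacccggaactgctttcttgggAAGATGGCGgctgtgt
PSMD10, chrX:107334743-107334972, minus strand: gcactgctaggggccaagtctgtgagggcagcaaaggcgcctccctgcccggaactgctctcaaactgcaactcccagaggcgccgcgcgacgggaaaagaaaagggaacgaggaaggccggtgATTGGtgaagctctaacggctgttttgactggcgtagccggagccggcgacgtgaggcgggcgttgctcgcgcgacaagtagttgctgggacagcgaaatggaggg
PSMA8, chr18:23713633-23713862, plus strand: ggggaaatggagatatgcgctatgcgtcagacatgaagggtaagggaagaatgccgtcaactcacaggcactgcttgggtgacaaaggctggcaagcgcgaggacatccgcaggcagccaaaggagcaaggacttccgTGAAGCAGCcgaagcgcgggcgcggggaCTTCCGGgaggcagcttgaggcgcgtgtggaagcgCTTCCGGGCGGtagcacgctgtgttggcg
PSMB11, chr14:23511221-23511450, plus strand: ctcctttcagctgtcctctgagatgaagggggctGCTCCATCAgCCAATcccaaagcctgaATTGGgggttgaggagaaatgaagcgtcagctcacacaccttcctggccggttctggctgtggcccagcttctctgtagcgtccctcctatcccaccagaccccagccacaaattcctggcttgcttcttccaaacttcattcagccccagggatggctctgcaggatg

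PHF8 peaks were found at the promoters of almost every proteasome gene. A gene was counted as a target where a called peak overlapped the 1 kb on either side of any of its annotated transcription start sites (TSSs) in all 3 replicates. Of the 46 proteasome genes 44 were targets (95.7%, 95% Wilson interval 85.5 to 98.8), and each replicate on its own gave 44. Among all protein-coding genes 12139 were targets, or 60.2% (59.5 to 60.9). Both intervals treat genes as independent draws, although each set is complete. They do not measure the spread between replicates and were not used as a test. The paper gives a smaller count of targets for a rule of the same form, and the difference was not traced. All 6 ATPase genes (PSMC1 to PSMC6), all 11 genes of other regulatory particle subunits (PSMD1 to PSMD4, PSMD6 to PSMD8 and PSMD11 to PSMD14), all 7 genes of assembly factors (PSMD5, PSMD9, PSMD10 and PSMG1 to PSMG4), all 4 activator genes (PSME1 to PSME4) and the gene of the inhibitor PSMF1 were bound. In the core particle 7 of 8 alpha ring genes (PSMA1 to PSMA7) and 8 of 9 beta ring genes (PSMB1 to PSMB7 and PSMB10) were bound.

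The genes without a peak were PSMA8, which encodes the alpha subunit of the testis, and PSMB11, which encodes the catalytic beta subunit of the thymic cortex. Neither had a promoter peak in any replicate. The peak nearest to a start of PSMA8 was 42331 bp away in A, 42294 bp in B1 and 42336 bp in B2. That of PSMB11 was 7193 bp away in A, 7264 bp in B1 and 7191 bp in B2, and it was the promoter peak of PSMB5, the next proteasome gene on chromosome 14. The promoter of PSMA8 was rich in CpG, with an observed over expected CpG ratio of 0.886, and that of PSMB11 was poor, with a ratio of 0.294. Both sequences are shown above.

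By the class defined below, CpG-rich promoters were more often bound throughout the genome. The proteasome genes were therefore also set against promoters of the same class. A promoter was called CpG-island-like where the 250 bp on either side of the reference TSS held at least 0.5 of G and C and the ratio of observed to expected CpG was 0.6 or more. The reference TSS was the one nearest to the strongest summit in replicate A, or in the next replicate with a peak, and in genes without a peak the 5′ end of the gene. The class was thus not independent of binding, and it was not read at a start chosen without the peaks. This held for 43 of the 46 proteasome promoters (93.5%) and for 67.1% of all protein-coding promoters. Of the 43 CpG-island-like proteasome promoters 42 were targets (97.7%), beside 82.8% of the 13537 CpG-island-like promoters of protein-coding genes. Of the other 3, PSMB5 (ratio 0.591) and PSMC2 (GC content 46.9%) were bound and PSMB11 was not, beside 14.0% of the 6625 other protein-coding promoters. PSMB5 missed the ratio of 0.6 only narrowly. For PSMC2 the class was read at chr7:102985361, away from its canonical start at chr7:102988090. That reference TSS was set by a summit that lay 12 bp from a start of DNAJC2 in A. These few genes thus do not show how CpG-poor proteasome promoters are bound.

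The share of proteasome genes stayed above that of all genes when higher peaks were asked for, up to a fold enrichment of 40. Peak height is given as fold enrichment, the ratio of ChIP fragments to the local background at the summit, and for each gene the strongest promoter peak was used. A peak above a fold enrichment of 10 in every replicate was found at 43 proteasome genes, all of the bound ones except PSMD10, and at 49.6% of protein-coding genes. Above 20 there were 28 proteasome genes (60.9%), beside 23.8%. Above 30 there were 9 (19.6%), beside 5.41%. Above 40 only PSMD14 and PSMD5 were left (4.35%), beside 0.625%. No proteasome gene exceeded 45 in every replicate, beside 33 of the 20162 protein-coding genes (0.164%).

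**Figure D1:**
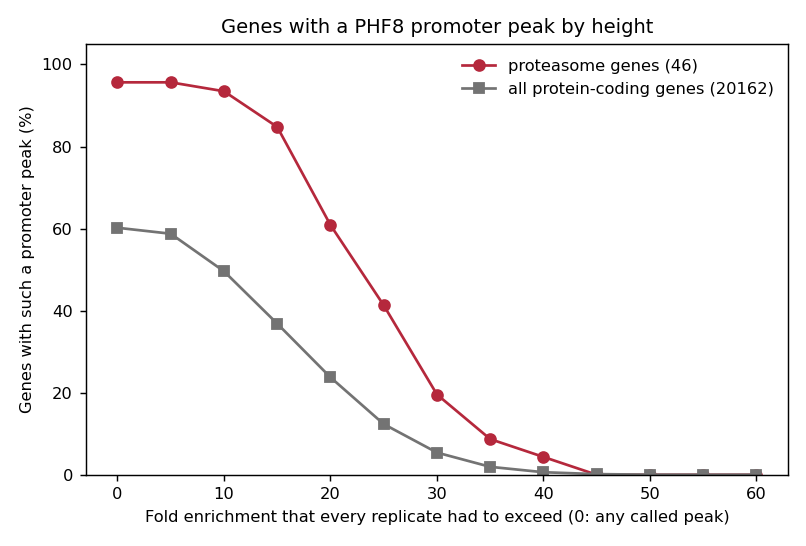
Share of genes, in percent, with a PHF8 promoter peak above the fold enrichment on the x axis in all 3 replicates, for the 46 proteasome genes (red circles) and all 20162 protein-coding genes (grey squares). At 0, which stands for any called peak, the shares are 95.7% and 60.2%, and both reach about 0 at 45.

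Over the 44 bound proteasome genes, replicates A, B1 and B2 had median fold enrichments of 43.6, 26.1 and 24.0. Over all protein-coding targets they were 33.4, 19.4 and 18.4. Among the 42 CpG-island-like proteasome targets the medians were 43.6, 26.1 and 24.0, beside 34.2, 19.8 and 18.8 over the 11210 CpG-island-like targets. In A 32 of the 44 genes lay above the median of protein-coding targets, in B1 35 and in B2 34. The values ran from 21.8 to 62.8 in A, from 9.89 to 42.5 in B1 and from 11.2 to 42.3 in B2. Replicate A ran higher at most genes, with a median ratio of A to B1 of 1.71 over these genes and of 1.69 over all targets. Fold enrichment was therefore compared between genes within a replicate, as a percentile among the 12139 protein-coding targets, and then averaged over the 3 replicates.

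**Figure D2:**
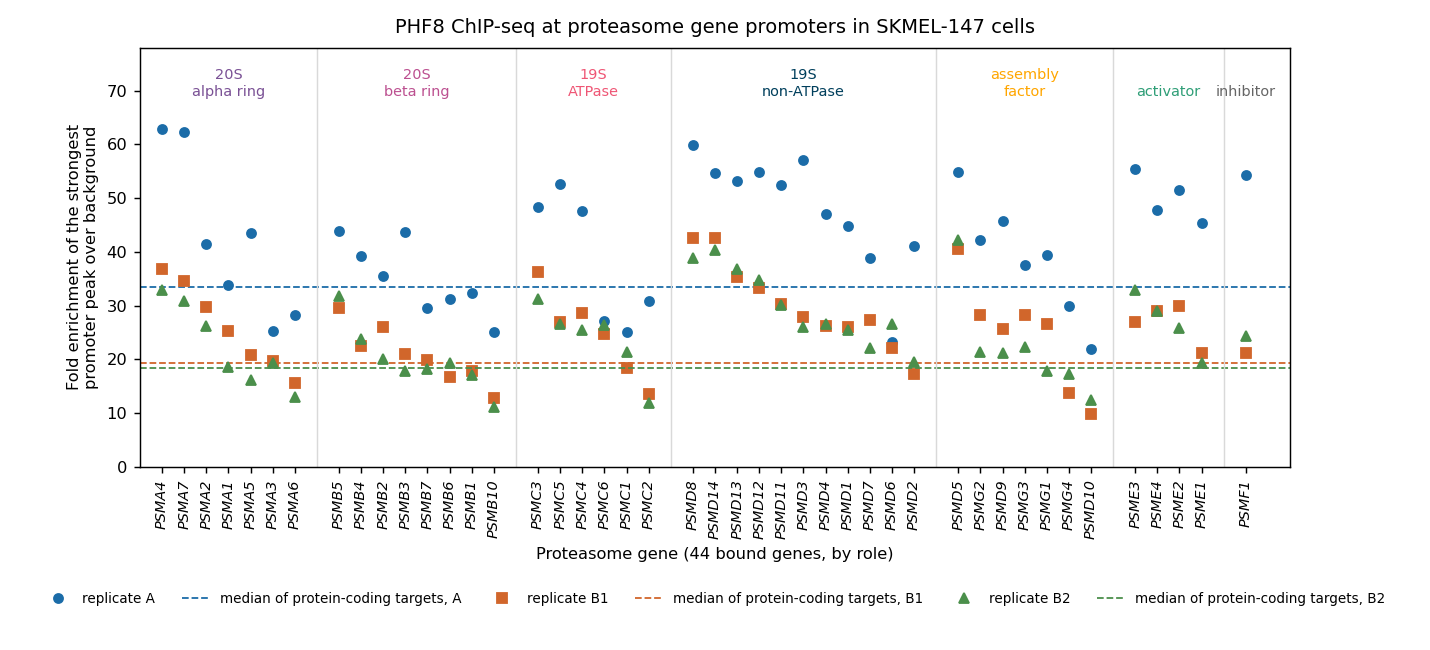
Fold enrichment over background of the strongest promoter peak of the 44 bound proteasome genes (x axis, ordered within each role by mean percentile) in replicates A (blue circles), B1 (orange squares) and B2 (green triangles). Dashed lines give the median of protein-coding targets in each replicate (33.4, 19.4 and 18.4), and most proteasome genes lie above the line of their replicate.

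The median over the 44 genes of the mean percentile was 70.9, beside 50.8 over all protein-coding targets. Below 25 on this scale lay 2 proteasome genes, between 25 and 50 there were 8, between 50 and 75 there were 15, and above 75 there were 19. Of the 12139 protein-coding targets, 2816, 3152, 3369 and 2802 lay in the same ranges. Within a replicate the median percentile was 74.8, 76.1 and 72.8 in A, B1 and B2. The fragments at the summit, recovered from the deposited fold enrichment and p-value, had medians of 119.5, 83 and 81 over the proteasome genes. Over protein-coding targets these medians were 97, 64 and 63. The smallest fragment count behind any of these strongest peaks was 28, at PSMD10 in B1, with a 95% exact Poisson interval of 18.6 to 40.5 that covers counting error only.

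The genes of the regulatory particle subunits other than the ATPases ranked highest among the larger role groups. Their median mean percentile was 85.3, and all 11 lay above 50. PSMD8 (ENSG00000099341), which encodes the lid subunit RPN12, had the highest rank of all proteasome genes. In A its peak covered chr19:38864774-38865916 of the GRCh37 build, with the summit in a coding exon. In A, B1 and B2 its peak reached 59.8, 42.5 and 38.8, from 176, 140 and 133 fragments, and its mean percentile was 97.8 ± 1.23 (SD, n = 3). PSMD14 (ENSG00000115233) encodes RPN11, the deubiquitinase that removes ubiquitin chains from the substrate. It had values of 54.7, 42.5 and 40.3 in A, B1 and B2 and a mean percentile of 96.6 ± 3.75, so its rank overlapped that of PSMD8. In A its peak covered chr2:162164454-162165398, with the summit upstream of the gene.

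The other genes of this group ran from 94.2 down to 55.4. PSMD13, for the lid subunit RPN9, had fold enrichments of 53.1, 35.3 and 36.9 in A, B1 and B2 (mean percentile 94.2 ± 3.51). PSMD12 and PSMD11, for the lid subunits RPN5 and RPN6, had mean percentiles of 93.5 ± 1.86 and 88.6 ± 1.66. PSMD3, for RPN3, stood at 85.3 ± 7.94, and PSMD4, for the ubiquitin receptor RPN10, at 79.8 ± 3.19. PSMD1, for the large base subunit RPN2, varied least between replicates at 77.1 ± 0.916, and PSMD7, for RPN8, stood at 69.7 ± 8.52. The lowest were PSMD2, which encodes RPN1, the other large base subunit, and PSMD6, which encodes RPN7. PSMD2 had fold enrichments of 41.0, 17.3 and 19.5 in A, B1 and B2 and a mean percentile of 55.4 ± 13.5.

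PSMD6 varied most between replicates. Its peak reached 23.1, 22.0 and 26.6 in A, B1 and B2, although most genes were higher in A, and its percentile ran from 24.8 in A to 81.5 in B2 (mean 55.7 ± 28.7). Ranked by fragments instead, with 115, 81 and 102 at the summit, its mean percentile was 74.4. PSMC6 came next, with fold enrichments of 27.1, 24.8 and 26.4 and percentiles of 33.9, 71.4 and 81.2 (mean 62.2 ± 24.9). These genes had the largest SD of all bound proteasome genes.

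The ATPases form the ring that unfolds the substrate, and their genes had a median mean percentile of 71.7. PSMC3 was the highest, with fold enrichments of 48.3, 36.2 and 31.2 in A, B1 and B2 and a mean percentile of 90.3 ± 5.89. PSMC5 and PSMC4 stood at 83.4 ± 5.69 and 81.2 ± 2.68. PSMC1 stood at 46.0 ± 17.1 and PSMC2 at 30.9 ± 11.2, the only members of the ring below 50. PSMC2 had 30.8 in A, 13.6 in B1 and 11.9 in B2, below the median of protein-coding targets in every replicate.

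Among the alpha ring genes, which encode the outer rings that gate the core particle, the bound members had a median mean percentile of 58.6 and a wide range. PSMA4 had fold enrichments of 62.8, 36.7 and 32.9 in A, B1 and B2 (mean percentile 95.8 ± 2.2), and PSMA7 had 62.3, 34.7 and 30.8 (94.1 ± 3.63). These were the highest fold enrichments of all proteasome genes in replicate A. PSMA6 was the lowest, with 28.3, 15.5 and 13.0 in A, B1 and B2 (32.9 ± 5.37), and PSMA3 had 25.3, 19.7 and 19.4 (45.2 ± 13.6). Between them lay PSMA2 at 78.8 ± 8.00, PSMA1 at 58.6 ± 12.7 and PSMA5 at 57.0 ± 17.3.

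The beta ring holds the proteolytic sites, and its genes had the lowest median mean percentile of the groups, 53.6, close to the 50.8 of all targets. PSMB5 (ENSG00000100804), which encodes the chymotrypsin-like subunit, was the highest. In A its peak covered chr14:23503625-23504228, with the summit in a coding exon. In A, B1 and B2 its peak reached 43.9, 29.5 and 31.8, with a mean percentile of 84.2 ± 8.39. The other constitutive catalytic subunits ranked near the middle of all targets. PSMB6, for the caspase-like subunit, had 31.2, 16.6 and 19.4 (46.0 ± 7.81), and PSMB7, for the trypsin-like subunit, had 29.5, 19.8 and 18.1 (47.4 ± 6.27). PSMB5 was higher than both in each of the 3 replicates.

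PSMB10 encodes the catalytic subunit that replaces PSMB7 in the immunoproteasome and is induced by interferon. It had fold enrichments of 25.2, 12.9 and 11.2 in A, B1 and B2 and a mean percentile of 24.0 ± 4.77, the lowest of the bound beta ring genes. The non-catalytic subunits PSMB4, PSMB2, PSMB3 and PSMB1 had mean percentiles of 66.8 ± 4.69, 62.8 ± 11.2, 59.9 ± 13.8 and 45.4 ± 1.78.

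Assembly factors help build the particle and are not part of the finished enzyme. PSMD5, a chaperone of the ATPase ring, ranked with the highest genes at 54.8 in A, 40.5 in B1 and 42.3 in B2 (96.5 ± 3.65). PSMD10 (ENSG00000101843), also called gankyrin and likewise a chaperone of the ATPase ring, was the lowest of all bound genes with 21.8, 9.89 and 12.5 (19.9 ± 5.67). PSMD9, the third of these chaperones, lay between them at 71.9 ± 8.55. Of the chaperones that build the alpha ring, PSMG2 stood at 72.4 ± 9.71, PSMG3 at 70.0 ± 11.1 and PSMG1 at 63.6 ± 15. PSMG4 was the lowest of them, with fold enrichments of 30.0, 13.8 and 17.2 in A, B1 and B2 (38.2 ± 9.40).

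The activators cap the core particle in place of the regulatory particle, and their median mean percentile was 84.6. PSME3, which encodes the nuclear activator PA28 gamma, had fold enrichments of 55.3, 27 and 32.9 in A, B1 and B2 (88.6 ± 8.18). PSME4, for PA200, stood at 84.6 ± 2.05. The interferon-induced PA28 pair was bound as well, PSME2 with 51.5, 29.9 and 25.8 (84.5 ± 4.87) and PSME1 with 45.3, 21.2 and 19.4 (63.5 ± 12.8). PSMF1, which encodes the inhibitor PI31, had 54.3, 21.2 and 24.3 (74.4 ± 17.0). Of the inducible genes only PSMB10 thus lay below the median of protein-coding targets in all 3 replicates.

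**Figure D3:**
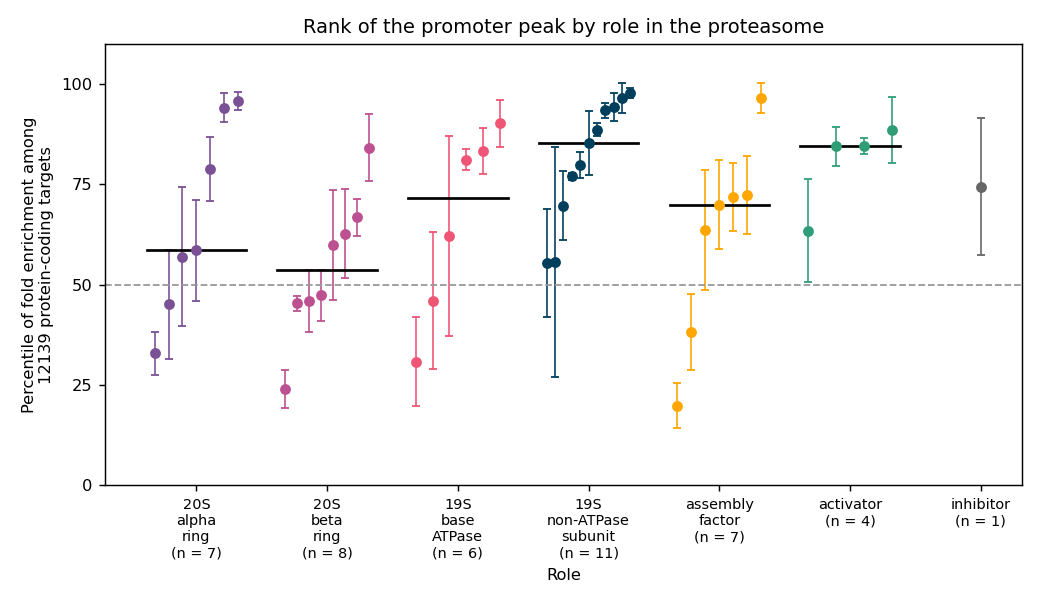
Mean percentile of fold enrichment among the 12139 protein-coding targets (points, one per gene, error bars SD over 3 replicates) by role in the proteasome, with the median of each group as a black bar and 50 as a dashed line. The bar runs from 53.6 for the beta ring to 85.3 for the non-ATPase subunits, and each group with more than 4 genes spans a wide range.

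Many of these genes had a neighbour's start close by, and a peak that overlaps the windows of both starts counts for both genes. A neighbour's TSS on the other strand lay within 1 kb of a TSS at 22 of the 46 proteasome genes (47.8%, beside 36.8% of protein-coding genes), and for 13 of them (28.3%, beside 17.6%) that partner was protein-coding. Among the pairs were PSMA2 with MRPL32, PSMC2 with DNAJC2, PSMD13 with SIRT3, PSME2 with RNF31, PSME3 with BECN1, PSME4 with ACYP2 and PSMD10 with ATG4A. Without the proteasome genes that had such a neighbour, and ranked among targets without one, the median mean percentile was 68.3 over 22 genes.

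At 4 genes the strongest summit lay nearer to a TSS of another protein-coding gene in all 3 replicates, namely PSMA2, PSMB10, PSMC2 and PSMD13. The share of all protein-coding targets with such a summit was not counted. At PSMB10 the other gene was ENSG00000261884, on the same strand, with a start 32, 76 and 5 bp from the summit in A, B1 and B2. The strongest summit of PSMC2 was 12 bp from a start of DNAJC2 in A, 20 bp in B1 and 5 bp in B2. A lower peak just downstream of its own canonical start had fold enrichments of 10.9, 11.6 and 11.8 in A, B1 and B2. For PSMD13 the strongest summit was 103, 97 and 113 bp from a start of SIRT3, and the peak at its own start had 28.5, 22.8 and 19.1. For PSME2 the strongest summit was 8, 5 and 32 bp from a start of RNF31, and the peak nearest to its canonical start had 40.2, 15.8 and 18.0. For PSMA2 the strongest summit was 131, 123 and 92 bp from a start of MRPL32. The ranks given for PSMA2, PSMB10, PSMC2 and PSMD13 were thus taken at a summit nearer to another protein-coding gene's start in all replicates. The same held for PSME2 in A and B1, PSME4 in A and B2, PSMC5 in B1 and PSMG2 in A. At PSMB10 the strongest summit lay in a coding exon, 801 bp downstream of its canonical start in A, 757 bp in B1 and, in a different peak, 1214 bp in B2.

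At most bound genes a summit lay shortly downstream of the canonical start. The summit nearest to that start had a median position of 139 bp downstream in A (25th to 75th percentile 123 to 155 bp), 139 bp in B1 (114 to 154 bp) and 129 bp in B2 (104 to 152 bp) over the 44 bound genes. Over all protein-coding targets the medians were 129, 128 and 129 bp (87 to 152, 86 to 156 and 88.5 to 157 bp). Taking the summit nearest to the start draws positions toward it in both sets. It lay 50 to 200 bp downstream in 37 (84.1%), 38 (86.4%) and 36 (81.8%) of the 44 genes, beside 70.3%, 69.9% and 70.4% of protein-coding targets. In all 3 replicates at once it did so in 34 (77.3%, beside 60.0% of protein-coding targets). This reference point and these bounds were chosen after the positions were seen. PSMB7 was typical, with 125 bp in A, 117 bp in B1 and 104 bp in B2, and so was PSMB5 with 126, 132 and 116 bp.

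**Figure D4:**
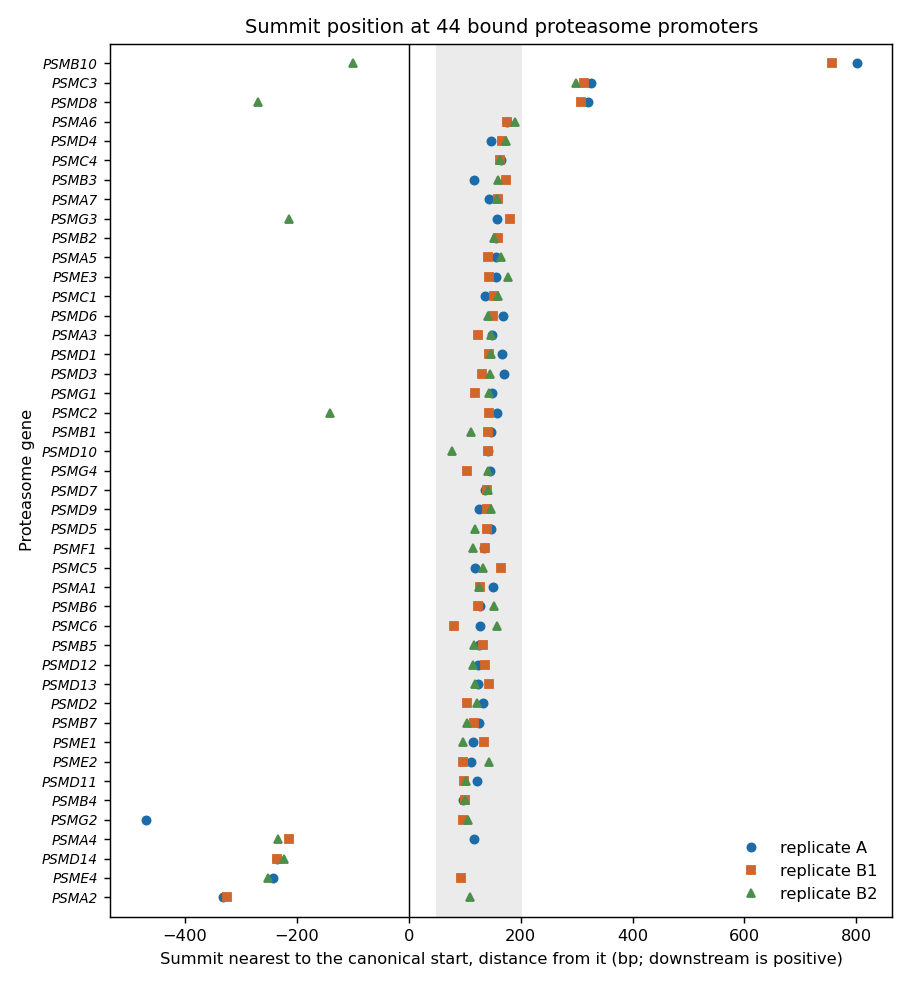
Position in bp of the summit nearest to the start of the Ensembl canonical transcript (x axis, downstream positive) at each of the 44 bound proteasome genes (y axis) in replicates A (blue circles), B1 (orange squares) and B2 (green triangles). The grey band marks 50 to 200 bp, which holds 34 genes in all 3 replicates, and single points to the left of 0 are genes whose nearest summit was upstream.

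The other 10 genes were PSMA2, PSMA4, PSMB10, PSMC2, PSMC3, PSMD14, PSMD8, PSME4, PSMG2 and PSMG3. The single promoter peak of PSMD14 covered its start in every replicate, but the summit lay upstream, at -236 bp in A, -235 bp in B1 and -224 bp in B2. That summit was 114, 113 and 102 bp from the start of PSMD14-DT, a long non-coding RNA on the opposite strand. PSMC3 had its summit 326, 314 and 299 bp downstream. PSMA4 had 117 bp in A and -214 and -234 bp in B1 and B2, within single peaks of 1085, 1003 and 1085 bp. Such wide peaks cover both sides of the start.

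Measured to the nearest of all annotated starts of a gene, of which the proteasome genes had a median of 8 and protein-coding genes of 5, the strongest summit lay downstream in 33 (75%), 28 (63.6%) and 32 (72.7%) of 44 genes in A, B1 and B2. The share over protein-coding targets was 65.8%, 65.9% and 66.2%, so the proteasome genes lay on either side of it. The farthest such summit was at PSMD13, at -743 bp in A, -737 bp in B1 and -753 bp in B2. The summit positions of the 3 replicates lay within 50 bp of each other in 32 of the 44 genes (72.7%, beside 67.1%).

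The median width of the strongest peaks was below that of all protein-coding targets in A (810 beside 824 bp) and B2 (573 beside 673 bp), and above it in B1 (758.5 beside 721 bp). Separate peaks were common, with 18 of the 44 genes holding at least 2 promoter peaks in every replicate (40.9%, beside 31.9%) and 13 holding 1 in every replicate (29.5%, beside 37%). The 18 genes were PSMA1, PSMA3, PSMA5, PSMA6, PSMB3, PSMB10, PSMC2, PSMC3, PSMC5, PSMD2, PSMD3, PSMD10, PSMD13, PSME2, PSME3, PSMG2, PSMG3 and PSMG4. PSMG2, with starts some distance apart, held 3 peaks in A and 4 each in B1 and B2. Merged over replicates, the promoter peaks of all 44 genes formed 70 regions, of which 63 were found in 3 replicates, 2 in 2 and 5 in 1.

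Motifs were counted on both strands from 250 bp before to 50 bp after the reference TSS. Of 7 motifs searched in this window, the ETS motif stood farthest above the share of all promoters in percentage points. With 250 bp on either side the ARE core did instead. CCGGAAG, the core of sites for ETS factors, was in 18 of 46 proteasome promoters (39.1%), beside 13.5% of all protein-coding promoters and 18.3% of CpG-island-like ones. AAGATGGCG, the site of YY1, was in 7 (15.2%), beside 2.85% and 4.00%. TGANNNNGC, the core of the antioxidant response element (ARE) bound by NFE2L1 and NFE2L2, was in 26 (56.5%), beside 42.6% and 42.7%.

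The other motifs were closer to the background. GGGCGG, the box of SP1 and KLF factors, was in 32 proteasome promoters (69.6%), beside 59.8% of all and 78.9% of CpG-island-like promoters. CCAAT, the NF-Y box, was in 15 (32.6%), beside 33.9% and 32.1%. GCGCANGCG, the site of nuclear respiratory factor 1 (NRF1), was in 5 (10.9%), beside 10.4% and 15.1%. TATAAA, the TATA box, was in 2 (4.35%), PSMC1 and PSMA8, beside 9.01% and 3.80%. Matches of different motifs overlapped in 8 of the 46 promoters, as at PSMB7 above, where GGGCGG and the ARE core share bases on the opposite strand.

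**Figure D5:**
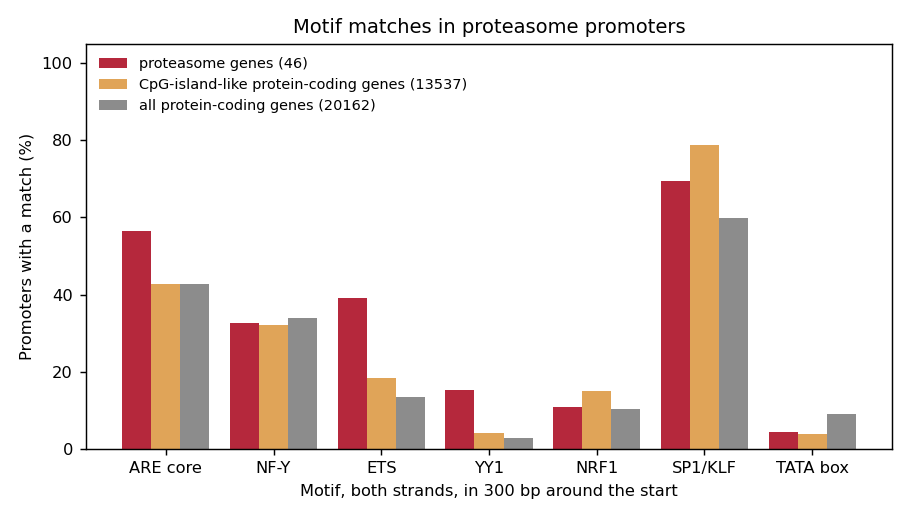
Share of promoters, in percent, with at least 1 match to each motif on either strand from 250 bp before to 50 bp after the reference TSS, for the 46 proteasome genes (red), the 13537 CpG-island-like promoters (yellow) and all 20162 protein-coding promoters (grey). The red bar exceeds both others for the ARE core (56.5%), ETS (39.1%) and YY1 (15.2%).

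The genes with the YY1 motif were PSMA2, PSMB6, PSMB7, PSMC3, PSMC5, PSMD8 and PSMD11. Taken from the canonical start instead, an alternative added after seeing the data, the motif was in 4 of 46 promoters (8.70%, beside 2.81%), the ETS motif in 18 (39.1%, beside 14.0%) and the ARE core in 28 (60.9%, beside 42.2%). In the printed stretches the ETS motif lay at -4 in PSMD14, -17 in PSMD8, -46 in PSMB7 and at -34 and 1 in PSMA8, counted in bases from the canonical start at 0, and was absent from PSMB5, PSMD10 and PSMB11. A match was thus also seen in an unbound promoter. Within 100 bp of the B2 summit the ETS motif was in 0 of the 44 bound genes, beside 4.49% of protein-coding targets, and GGGCGG in 11, beside 50.4%, so for both motifs the order turned with the window.

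Peak rank and motif content were set side by side. Bound proteasome genes with the ARE core had a median mean percentile of 79.1 (24 genes), and those without it 65.9 (20 genes). Over all protein-coding targets the medians were 52.0 and 49.7. For the YY1 motif they were 83.4 (7 genes) and 69.7 (37 genes), beside 63.5 and 50.0 over all targets. For the ETS motif the order differed between the sets, with 69.7 (17 genes) and 77.1 (27 genes) in proteasome genes, beside 57.8 and 48.9 over all targets. These splits were described and not tested.

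By their labels the replicates form a pair with the letter B, to which 1 input also belongs, and a single A with its own input. Over the proteasome genes B1 and B2 were closer to each other than either was to A. The median ratio of fold enrichment over the 44 genes was 1.06 for B1 to B2, 1.71 for A to B1 and 1.76 for A to B2. Spearman's rho of fold enrichment across the 44 genes was 0.786 between A and B1, 0.741 between A and B2 and 0.870 between B1 and B2. Over all protein-coding targets it was 0.839, 0.842 and 0.934. The SD over 3 replicates given with each mean percentile thus rests on A and a closer pair. These are correlations across genes, which share the library and its background within a replicate. The lists held 21506, 20882 and 20120 peaks, with medians of 54, 39 and 40 fragments at the summit. The fragments of all 44 bound proteasome genes exceeded that median in A, those of all but PSMD10 did in B1, and in B2 those of PSMA6, PSMB10, PSMC2 and PSMD10 did not. That median covers all listed peaks, and the medians over protein-coding targets were higher as well, at 97, 64 and 63. The share of protein-coding targets above it was not counted.

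A list of 26 further genes, related to the proteasome by function or by symbol but outside the symbol rule, was examined as well. It holds assembly factors, ubiquitin receptors and shuttles, deubiquitinases and regulators of proteasome genes. Some genes on it, such as PSMC3IP, are outside these classes. All 26 were targets, beside 60.2% of protein-coding genes and 82.8% of those with CpG-island-like promoters. Their median mean percentile was 71.7, beside 50.8 over all protein-coding targets. NFE2L1, the factor that raises proteasome gene transcription, had fold enrichments of 50.3, 38.6 and 36.8 in A, B1 and B2. ADRM1, the ubiquitin receptor RPN13, had 54.2, 32.5 and 30.4. POMP, which matures the core particle, had 49.1, 35.1 and 25.3. SEM1, the smallest subunit of the regulatory particle, was the lowest of the list with 14.8, 13.0 and 10.2, below every bound gene that follows the symbol rule in A.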

How the data were processed

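Peak lists of the 3 PHF8 ChIP replicates were used, and the 2 inputs were not analysed on their own. The authors mapped reads with Bowtie2 (defaults, build hg19) and ran MACS in its narrow mode on each replicate against input, with no pooling of replicates, as labels and methods state. Picard and bcl2fastq are named in the submitters' processing notes with no role, the treatment of duplicates and the read totals are not given in the sources used here, and labels and methods differ on the library kit. The deposited fold enrichment is a linear ratio over the local background, taken from the authors' MACS output. The deposited p-values and q-values are on the −log10 scale. The deposited score only repeats the q-value and stayed unused. The stated cutoffs were a fold enrichment of 1.5 and a q-value of 0.05, and all listed peaks lay above the first and below the second. The methods print the second as a q-value above 0.05, which was read here as below 0.05.

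TSSs and genes came from GENCODE release 44 lifted to GRCh37, the same build as hg19, and 0 peaks extended beyond the end of a chromosome. Mitochondrial genes and second copies on the Y chromosome were left out. Fragments n and the background were solved from fold enrichment, (n + 1) over (background + 1), and the p-value under a Poisson law, which gave whole numbers for 100% of peaks within 0.001 on the −log10 scale. In A, B1 and B2 the lowest background was 1.57, 1.93 and 2.04 fragments. This step and the assignment of peaks were tested on simulated data. Intervals cover counting error only, since PCR copies may remain. Python 3.11.15, pandas 2.3.3, scipy 1.17.1 and samtools 1.23.1 were used. No statistical test was run over the genes, which were chosen by name.

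The members, role groups, motifs and list of further genes were chosen with earlier results of these data known. Every member was named with its target status. Values in each replicate were given for unbound members, the 6 highest and 6 lowest by mean percentile, the catalytic and the tissue-restricted or inducible subunits, the highest and lowest of each role, members with several peaks or a far summit, and neighbours that share a peak. Positions and motifs relative to the Ensembl canonical start and a fold enrichment above 20 were added after seeing the data.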

Additional observations from a re-analysis of the deposited data

How the results depend on the processing

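The count of 44 bound proteasome genes was the same for fold enrichments above 4, for q-values below 0.001, with a summit inside the window, with windows of 2 kb and of 500 bp, with TSSs of protein-coding transcripts, with a peak in at least 2 replicates, with the Ensembl canonical transcript and without each replicate in turn. It was 43 above a fold enrichment of 10 (without PSMD10) and 41 with 1 TSS per gene (without PSMA6, PSMC2 and PSMF1), beside 49.6% and 54.0% of protein-coding genes. Above a fold enrichment of 20 it fell to 28, and the share of protein-coding genes to 23.8%. The median mean percentile of 70.9 became 73.3 by fragments and 68.3 without shared promoters, and ran from 68.2 to 73.6 without 1 replicate.

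The mean share of downstream summits, 70.5% over the 3 replicates with a mean median position of 81.3 bp, became 79.7% and 154.7 bp with 1 TSS per gene, 77.8% and 91.7 bp without opposite starts within 2 kb, and 89.4% and 135.7 bp for the summit nearest to the canonical start. Genes with an opposite neighbour were 13 with protein-coding partners only. In 250 bp on either side of the TSS the ARE core was in 41 of 46 promoters (60.2% of all protein-coding promoters), CCAAT in 23 (42.2%) and TATAAA in 4 (11.4%). The ETS motif was in 19 there (16.55%), so the ARE core stood farthest above the share of all promoters in this window. In 100 bp on either side of the B2 summit, counted over the 44 bound genes and beside the share of the 12139 protein-coding targets, CCAAT was in 3 (8.86%), AAGATGGCG in 4 (1.39%), GGGCGG in 11 (50.4%), and CCGGAAG (4.49%), GCGCANGCG (2.46%) and TATAAA (0.725%) in 0. From the canonical start AAGATGGCG was in 4 of 46 (2.81%) and TATAAA in 5 (9.80%). Position and motif counts thus depend on the reference point.

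No paired analysis was possible because no peak list of the inputs was used here and no result comes from a test between groups. Depth limits low peaks, since the lists hold no peak under 8 fragments in A and B1 or 10 in B2, so an unbound gene is one without a peak at this depth.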
